A study of Homo sapiens with 36 samples.

Results

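HES1 and 6 genes of the Notch pathway, namely the receptors NOTCH1, NOTCH2 and NOTCH3, the ligands JAG1 and JAG2 and the DNA-binding factor RBPJ, were followed in HCT116 cells through exposure to 5-fluorouracil (5-FU) and the days after it. These 7 members were chosen by gene symbol out of the 15891 genes of the deposited table, after their levels over the days in these same libraries had been seen, and all 7 are listed there and passed the filter on low values. HES1 was at its lowest on day 2 of the drug and at its highest on day 7, and the difference between these days was 7.95-fold in cytoplasmic RNA and 8.72-fold in heavy polysomal RNA. NOTCH1, NOTCH2, NOTCH3 and JAG1 ran the other way in the heavy pool, where all 4 were above their starting level on day 2 and had their lowest mean on day 7.

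HCT116 is a line of human colorectal carcinoma cells, and 5-FU is a pyrimidine analogue that blocks thymidylate synthesis and enters RNA and DNA. Cells received 10 µM 5-FU for 48 h and were harvested on 6 days. D0 is the harvest before the drug went in, D1 and D2 fall within the exposure, and D7, D14 and D16 come after it. The sources used here do not give what set D16 apart from D14. Each collection gave cytoplasmic RNA, by a protocol meant to clear nuclei and mitochondria. It also gave a heavy pool of sucrose gradient fractions that carry more than 3 ribosomes per mRNA. There were 3 libraries (letters A, B and C, given as batches) in each of the 12 groups, 36 in all. Every group derives from the same line and was treated with emetine before harvest, D0 included. No untreated culture of a later day is among the samples, so the drug and the time in culture cannot be told apart. No label says that the letters stand for separate cultures, so the spread and the p-values measure differences between these libraries, which may be technical. The libraries are bulk RNA, in which a lower share of cells with a transcript and less of it per cell cannot be told apart.

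Notch receptors are cut by proteases once a ligand on a neighbouring cell binds them, and the freed intracellular part enters the nucleus and joins RBPJ, which otherwise sits on DNA with corepressors. HES1, a repressor of the basic helix-loop-helix class, is the best known gene switched on in this way, and it can also bind and repress its own promoter. In the intestinal epithelium, Notch signalling through HES1 keeps progenitor cells from taking a secretory fate.

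HES1 lies on chromosome 3 at 194136145 to 194138732 (GRCh38, plus strand, GENCODE 29). The stretch just upstream of it is shown because it carries the letters through which Notch and HES1 itself are known to act on this gene. It ends at the base before the annotated gene and covers chr3:194135898-194136144 on the plus strand (RefSeq promoter table, GRCh38.p14). Capitals mark TGGGAA, the core of the RBPJ motif, and CACNAG, the N box bound by HES1, which reads CTTGTG where the match is on the other strand.
HES1 upstream: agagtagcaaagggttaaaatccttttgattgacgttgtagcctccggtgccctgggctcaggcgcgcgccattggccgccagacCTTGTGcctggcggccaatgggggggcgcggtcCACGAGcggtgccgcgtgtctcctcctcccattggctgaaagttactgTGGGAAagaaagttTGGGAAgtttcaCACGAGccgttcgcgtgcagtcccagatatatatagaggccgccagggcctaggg
TGGGAA occurs in it 2 times, with its first bases at -84 and -70 from the RefSeq start, and the N box 3 times, at -165, -132 and -58; none of these matches overlap. Both motifs were searched on both strands. Among 35116 RefSeq promoter windows of 250 bases, 20.85% hold TGGGAA at least once and 2.9% at least 2 times, and 32.04% hold the N box. The 250 bases before the listed starts of NOTCH1, NOTCH2, NOTCH3, JAG1 and JAG2 hold no TGGGAA, whereas 1 of the 5 listed starts of RBPJ has it 2 times. The N box is there 1 time for NOTCH3 and at 1 other start of RBPJ, and not for NOTCH1, NOTCH2, JAG1 or JAG2. A match describes letters and shows no binding.

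Facts of the libraries bear on what follows. Depth, estimated from the step between values, ran from 41.0 to 103.6 megareads in the cytoplasmic libraries, with the second highest at 55.2, and from 46.1 to 55.7 megareads in the heavy pool. Mitochondrially encoded genes still made up 3.57 to 13.57% of the reads of the cytoplasmic libraries and 0.18 to 3.93% of those of the heavy pool. These reads count in the library totals used below. Cytoplasmic libraries scattered more about their group means (SD over all genes 0.238 to 0.664 in log2) than heavy libraries (0.164 to 0.254). The heavy pool of D14 and D16 was close to the cytoplasm: 45.8% of all genes differed between heavy pool and cytoplasm at D0 (limma, adjusted p under 0.05), against 1.23% at D14 and 0.85% at D16. Messages of cytosolic ribosomal proteins made up 4.70 to 6.49% of the reads of the heavy libraries from D0 to D7 and 9.42 to 11.3% of those of D14 and D16. The part of this in the D14 and D16 values of the heavy pool was not tested. Of 10 epithelial markers 9 are listed in the table, with cytoplasmic D0 means from 922.3 (CDH1) to 131259 (KRT8). Of the markers of fibroblasts, blood cells, endothelium and neurons only COL1A1, HBA1, TUBB3 and SYP are listed, with means from 37.1 to 567.9.

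Levels are given as normalised counts, on the scale the authors deposited. Per kilobase of exon, HES1 had the highest D0 level of the members with 534.4 ± 67.9 in the cytoplasm and 721.9 ± 61.0 in the heavy pool (SD, n = 3). JAG2 followed with 395.8 ± 55.7 and 460.7 ± 42.0, and RBPJ with 130.3 ± 9.92 and 235.0 ± 18.2. The receptors and JAG1 lay lower, between 67.1 (NOTCH2) and 100.1 (NOTCH1) in the cytoplasm and between 101.5 (NOTCH3) and 164.5 (NOTCH1) in the heavy pool. The length used was that of all annotated exons of a gene merged, 16807 bp for NOTCH2 and 9298 bp for JAG1. Their longest transcripts have 11389 and 5940 bp, so the order among the receptors and JAG1 depends on the length chosen. NOTCH2 has near-identical partial copies in the genome, of which NOTCH2NLA and NOTCH2NLC are listed in the table, so reads may have been split among them and its level is uncertain.

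Since the members were selected on results of these data, their levels and differences from D0 are a description without a test, each with its standard error from a limma fit on log2(value + 1) over all 18 libraries of the fraction. All differences from D0 within a fraction rest on the same 3 D0 libraries. Values of 3 libraries are given in the order A, B, C.

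**Figure D1:**
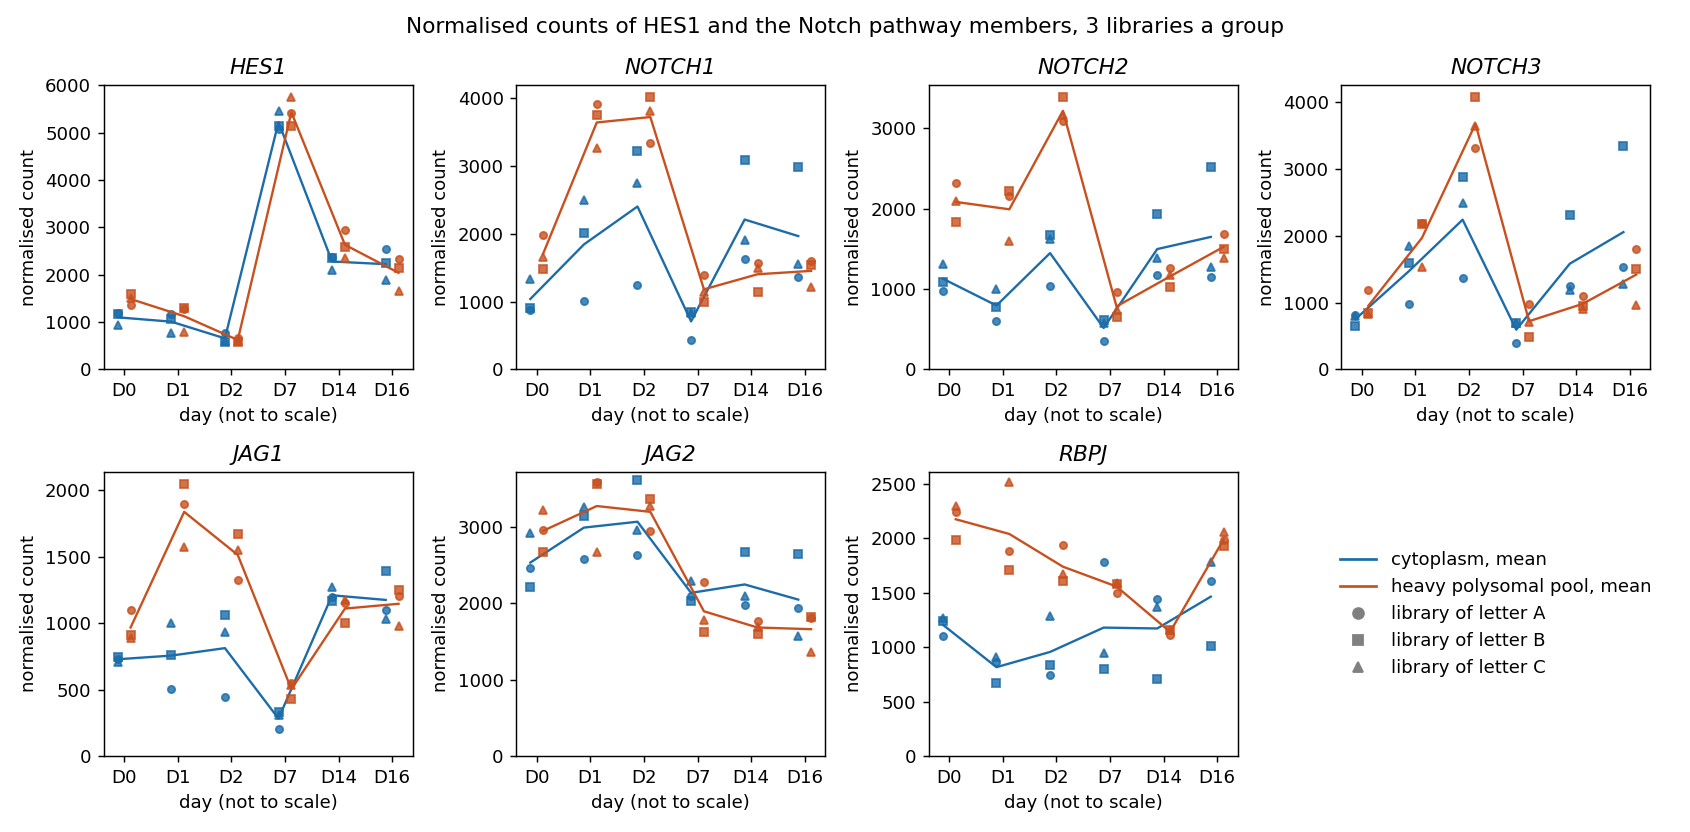
Normalised counts (vertical axis, linear from 0) of the 7 members by day (horizontal axis, not to scale) in cytoplasm (blue) and heavy pool (orange); symbols are libraries of letters A, B and C and lines join the means. HES1 peaks at D7 with all 6 libraries between 5079 and 5753, while the receptors and JAG1 have their lowest means there.

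HES1 in the cytoplasm was 1189, 1176 and 940.3 at D0 and 1179, 1073 and 777.6 at D1, which overlap. It was 777.9, 588.3 and 606.0 at D2, all 3 below every D0 library. At D7 it reached 5079, 5139 and 5456, the highest of all days and more than any library of another day. At D14 it was 2384, 2363 and 2095 and at D16 2541, 2242 and 1894, overlapping each other and above every D0 library. In log2, the difference from D0 was -0.14 ± 0.19 at D1, -0.75 ± 0.19 at D2, 2.25 ± 0.19 at D7, 1.05 ± 0.19 at D14 and 1.01 ± 0.19 at D16 (SE). The D7 value corresponds to 4.76-fold.

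The heavy pool gave HES1 the same order of days at its ends. It held 1355, 1604 and 1506 at D0, then 1284, 1308 and 783.0 at D1 and 669.8, 587.9 and 612.3 at D2. Both treated days lay below every D0 library, and D2 lay below every D1 library. The D7 libraries held 5408, 5144 and 5753, those of D14 2955, 2587 and 2360, and those of D16 2334, 2138 and 1657. Ordered by their means (D2, D1, D0, D16, D14, D7), no neighbouring days of HES1 overlapped in the heavy pool, although D1 reached 1308 against 1355 at D0 and D16 reached 2334 against 2360 at D14. In the cytoplasm, only D0 against D16 and D14 against D7 were apart among neighbours in the order of means. The log2 difference from D0 in the heavy pool was -0.44 ± 0.15 at D1, -1.25 ± 0.15 at D2, 1.87 ± 0.15 at D7, 0.82 ± 0.15 at D14 and 0.45 ± 0.15 at D16.

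Leaving out single letters moved the D7 difference of HES1 between 2.11 and 2.33 in the cytoplasm and between 1.81 and 1.96 in the heavy pool. In the heavy pool the D1 difference shrank to -0.19 without letter C, and the D16 difference came to 0.28 without letter A. Scaling libraries to equal totals gave 0.87 at D16. The direction of HES1 against D0 was the same under every alternative run, in both fractions and on all 5 days.

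NOTCH1, the receptor most studied in the intestine and in leukaemia, is on chromosome 9 (136494433 to 136545786, minus strand). Heavy-pool values were 1987, 1473 and 1661 at D0, 3905, 3748 and 3258 at D1 and 3329, 4011 and 3812 at D2. Every library of D1 and D2 was above every D0 library, and the differences were 1.10 ± 0.14 and 1.13 ± 0.14 in log2. At D7 it was 1394, 997.6 and 1148, all below D0, with a difference of -0.54 ± 0.14. D14 (1574, 1146 and 1487) and D16 (1598, 1536 and 1221) overlapped D0, and these 2 differences turned positive under equal library totals (0.03 and 0.19).

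Cytoplasmic NOTCH1 was 870.1, 906.4 and 1338 at D0. It was 1015, 2007 and 2502 at D1 and 1241, 3219 and 2740 at D2, where the A library lay within the D0 range on both days. At D7 it was 436.2, 851.6 and 838.4, below D0. At D14 it was 1629, 3087 and 1909 and at D16 1362, 2981 and 1548, above D0 on both days, D16 A only just (1362 against 1338). The difference from D0 was 1.12 ± 0.41 at D2, -0.59 ± 0.41 at D7, 1.06 ± 0.41 at D14 and 0.86 ± 0.41 at D16.

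NOTCH3 (chromosome 19, 15159038 to 15200981, minus strand) had the largest D2 difference among the receptors in both fractions. This receptor is best known from smooth muscle of blood vessels and is also made by many carcinoma cells. Its heavy-pool values were 1190, 847.3 and 824.1 at D0, 2189, 2177 and 1541 at D1 and 3317, 4077 and 3640 at D2. The D1 libraries were above those of D0 and the D2 libraries above those of D1, with differences from D0 of 1.05 ± 0.22 and 1.96 ± 0.22. At D7 the values were 975.4, 483.6 and 710.0 and overlapped D0, as did 1103, 945.6 and 899.2 at D14 and 1799, 1498 and 967.7 at D16.

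In the cytoplasm, NOTCH3 was 818.0, 646.1 and 799.2 at D0 and above it on 4 of the 5 later days. The values were 975.4, 1593 and 1855 at D1, 1363, 2882 and 2486 at D2, 1247, 2313 and 1190 at D14 and 1536, 3353 and 1282 at D16. At D7 they were 396.9, 693.4 and 698.3, which overlaps D0. The B libraries of D14 and D16 stood well above the other 2 of their day. The D16 difference of 1.32 ± 0.38 came to 0.90 without the cytoplasmic libraries D7 A, D14 B and D16 B, and the D14 difference of 1.01 ± 0.38 came to 0.70.

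NOTCH2 (chromosome 1, 119911553 to 120069626, minus strand) is made widely and acts beside NOTCH1 in the intestinal crypt. Its heavy-pool values were 2322, 1828 and 2095 at D0 and 2150, 2221 and 1600 at D1, which overlap. They were 3087, 3384 and 3166 at D2, all above D0 (0.63 ± 0.14), and 962.3, 653.9 and 734.7 at D7, all below it (-1.42 ± 0.14). The D7 value was 2.68-fold lower than D0, the largest difference in this direction among the members in the heavy pool. At D14 (1267, 1025 and 1179) and D16 (1687, 1500 and 1385) NOTCH2 was still below every D0 library. In the cytoplasm only D7 (359.7, 613.6 and 573.4) was apart from D0 (975.3, 1093 and 1315), with a difference of -1.15 ± 0.31.

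The ligand JAG1 (chromosome 20, 10637684 to 10673999, minus strand) is a membrane protein that activates Notch on the adjacent cell and is itself a known Notch and Wnt target. Heavy-pool values were 1101, 911.1 and 891.5 at D0 and highest at D1 with 1895, 2047 and 1570 (0.92 ± 0.13). D2 (1324, 1669 and 1547) also lay above D0, and D7 (548.4, 428.9 and 536.1) lay below it (-0.94 ± 0.13). By D14 (1153, 1000 and 1176) and D16 (1207, 1250 and 979.7) the ranges overlapped D0 again.

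Cytoplasmic JAG1 had close D0 values of 734.3, 745.4 and 707.1. D1 (505.3, 763.7 and 1001) and D2 (441.9, 1062 and 934.6) spread to both sides of them. D7 (206.7, 329.8 and 311.8) was below D0 in all libraries, a difference of -1.39 ± 0.30 2.62-fold lower. D14 (1196, 1164 and 1269) and D16 (1097, 1395 and 1032) were above D0, by 0.73 ± 0.30 and 0.68 ± 0.30. The differences of JAG1 at D1 and D2 in the cytoplasm, 0.00 ± 0.30 and 0.06 ± 0.30, changed sign with the setting, for example to 0.27 without letter A at D1 and to -0.16 without letter B at D2.

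JAG2 (chromosome 14, 105140981 to 105168824, minus strand), the second ligand of the Jagged type, did not share the early difference of JAG1. Its heavy-pool values overlapped D0 (2952, 2676 and 3213) at D1 (3586, 3564 and 2664) and D2 (2941, 3368 and 3275). They were below D0 on the later days, with 2281, 1625 and 1778 at D7, 1769, 1593 and 1687 at D14 and 1804, 1815 and 1364 at D16. These differences were -0.65 ± 0.13, -0.81 ± 0.13 and -0.84 ± 0.13. In the cytoplasm JAG2 overlapped D0 on every day, between 1566 and 3608 over all 18 libraries.

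RBPJ, the DNA-binding factor at which the pathway converges, is on chromosome 4 (26163455 to 26435131, plus strand). Its heavy-pool values were 2241, 1983 and 2298 at D0 and 1886, 1712 and 2518 at D1, which overlap. They were below D0 at D2 (1940, 1603 and 1675), at D7 (1502, 1582 and 1587) and at D14 (1108, 1159 and 1156), where the difference was -0.93 ± 0.11. At D16 they were 1984, 1930 and 2054 and overlapped D0. The D2 difference of -0.32 ± 0.11 turned to 0.06 under equal library totals, a scaling that moved the median of all genes by 0.38 in that comparison.

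Cytoplasmic RBPJ was below D0 (1101, 1245 and 1271) only at D1 (866.7, 671.0 and 913.6). On the later days its libraries spread widely, with 1784, 804.5 and 950.5 at D7, 1444, 706.9 and 1366 at D14 and 1604, 1009 and 1779 at D16. Its difference at D14, -0.11 ± 0.32, changed sign without letter B (0.25) and under equal totals (0.04).

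**Figure D2:**
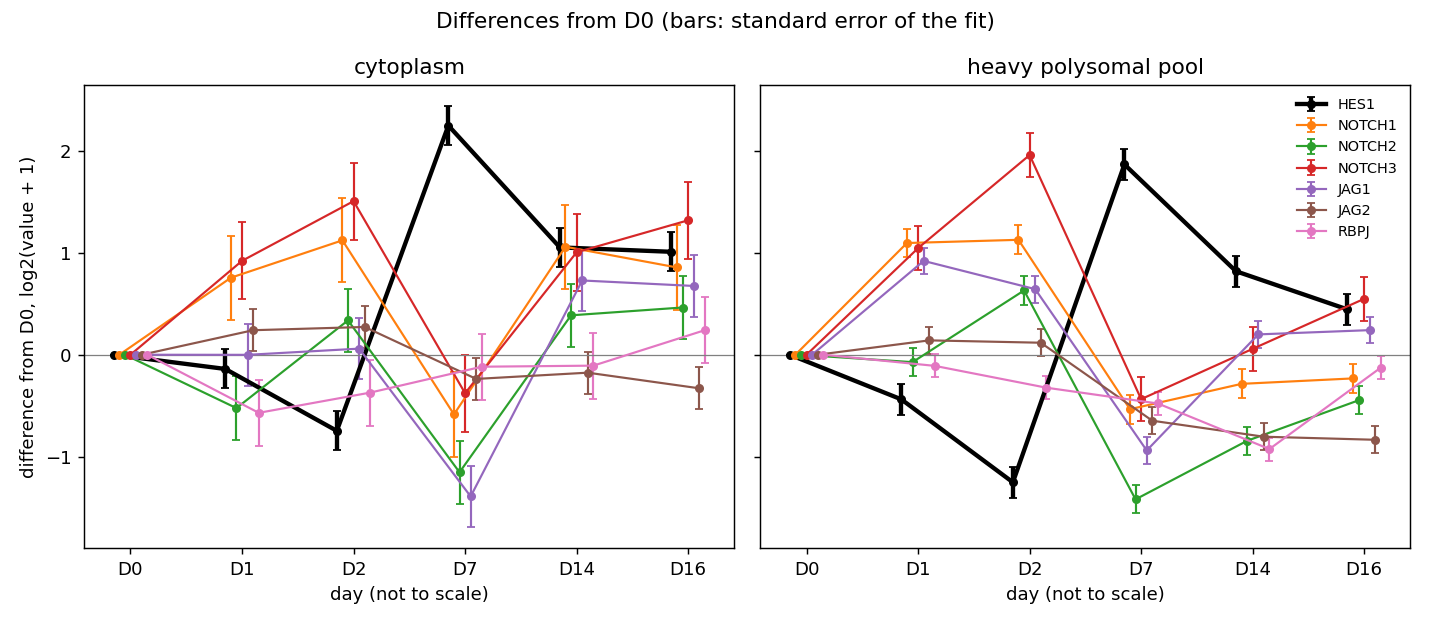
Difference from D0 in log2(value + 1) (vertical axis) by day (horizontal axis, not to scale) for the 7 members in cytoplasm and heavy pool; points are fitted group differences over 3 libraries and bars their standard errors. HES1 (black) is at -1.25 on D2 and 1.87 on D7 in the heavy pool, while NOTCH3 is at 1.96 and -0.44.

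Counting members whose 3 libraries all lay on one side of the 3 D0 libraries, the heavy pool had 3 above and 1 below at D1, where 23.3% of all genes were above and 31.6% below. At D2 it had 4 above and 2 below (34.1% and 38.3% of all genes), and at D7 it had 1 above and 5 below (29.7% and 39%). At D14 there were 1 above and 3 below (36.7% and 40.3%), and at D16 there were 1 above and 2 below (37.2% and 37.9%). In the cytoplasm there was 1 above and 1 below at D1 (23.8% and 24.4% of all genes) and again at D2 (22.5% and 21.6%). At D7 there were 1 above and 3 below (27.6% and 28%). At D14 and D16 there were 4 above and 0 below, beside 19.8% and 19.1% of all genes at D14 and 21.7% and 20.9% at D16. The 4 were HES1, NOTCH1, NOTCH3 and JAG1 on both days. Nothing is read from these counts, since the members were chosen with them in view.

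The spread of the receptors in the cytoplasm followed particular libraries. The A libraries of D1, D2 and D7 were low for NOTCH1, NOTCH2, NOTCH3 and JAG1, with NOTCH1 at -0.761, -0.838 and -0.635 from its group mean in log2. In the same libraries the deviation of all genes from the group mean correlated with log2 transcript length at r of -0.288, -0.591 and -0.325 across 15782 genes. With GC content r was -0.392, 0.159 and 0.001. The B libraries of D14 and D16 were high for NOTCH1 (0.54 and 0.69) and NOTCH3 (0.62 and 0.84) and low for RBPJ (-0.66 and -0.50). Their deviations correlated with GC content across genes at r of 0.738 and 0.69. NOTCH2 was also high there (0.395 and 0.706), JAG2 less so (0.264 and 0.399), and JAG1 was at -0.054 and 0.26. The longest transcripts of NOTCH1, NOTCH3 and JAG2 have 62.9%, 63.1% and 64.0% GC and that of RBPJ has 38%. Those of NOTCH2 (49.4%), JAG1 (49.6%) and HES1 (49.9%) are near the median of all genes, 48.8%. In D16 B, NOTCH2 (0.706) was about as high as NOTCH1 (0.69). HES1 deviated between -0.355 and 0.254 over the cytoplasmic libraries. Without the libraries D7 A, D14 B and D16 B, the cytoplasmic difference of NOTCH1 was -0.27 at D7, 0.79 at D14 and 0.51 at D16, and that of HES1 was 2.27, 1.03 and 1.00. The part of length and GC content in the values was not tested.

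The difference between the heavy pool and the cytoplasm of the same day and letter was taken on the log2 scale. It compares normalised levels in both pools and does not count ribosomes per message. Equal library totals moved the median of this difference over all genes by -0.01 at D0, 0.43 at D1, 0.48 at D2 and 0.60 at D7. At D0 this difference was positive for every member, at 0.89 ± 0.25 for NOTCH2, 0.85 ± 0.25 for RBPJ, 0.73 ± 0.33 for NOTCH1, 0.44 ± 0.18 for HES1, 0.40 ± 0.24 for JAG1, 0.32 ± 0.33 for NOTCH3 and 0.22 ± 0.18 for JAG2 (SE). The median of all genes was 0.14.

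HES1 had group means between -0.13 and 0.20 on the days after D0. By letter it was 0.19, 0.45 and 0.68 at D0, 0.12, 0.29 and 0.01 at D1, and -0.22, 0.00 and 0.01 at D2. At D7, when HES1 was highest, it was 0.09, 0.00 and 0.08. Its change against D0 was -0.51 ± 0.25 at D2 and -0.38 ± 0.25 at D7. Under equal library totals these came to -0.01 and 0.23, so neither was independent of the scaling.

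JAG1 had the largest change in this measure among the 7 members on D1. Its values by letter were 0.58, 0.29 and 0.33 at D0 and 1.90, 1.42 and 0.65 at D1, a change of 0.92 ± 0.34. The 3 letters of D1 were all above those of D0, though the A library of D1, low in the cytoplasm, gave the highest. RBPJ was 1.02, 0.67 and 0.85 at D0 and 1.12, 1.35 and 1.46 at D1, again with no overlap.

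On D14 and D16 the differences shrank or turned negative for the receptors. NOTCH1 by letter was 1.19, 0.70 and 0.31 at D0, -0.05, -1.43 and -0.36 at D14 and 0.23, -0.96 and -0.34 at D16. NOTCH2 was 1.25, 0.74 and 0.67 at D0, 0.11, -0.91 and -0.23 at D14 and 0.55, -0.75 and 0.12 at D16. For NOTCH1 and NOTCH2 every letter of D14 and D16 was below every D0 letter. The change against D0 at D14 was -1.35 ± 0.46 for NOTCH1, -1.23 ± 0.35 for NOTCH2, -0.95 ± 0.47 for NOTCH3, -0.82 ± 0.35 for RBPJ, -0.63 ± 0.25 for JAG2, -0.53 ± 0.34 for JAG1 and -0.23 ± 0.25 for HES1. At D14 all 7 changes were negative, where the median of all genes was -0.10. They were negative under equal library totals too, where that median was 0.07. How many of all genes had a negative change was not counted. Nor was the share of all genes whose letters lay apart from D0 in this measure, on any day. Nothing is read from these signs and separations, since the members were chosen with their levels known. Leaving out letter B moved NOTCH3 to -0.58 and RBPJ to -1.25, and leaving out letter A moved RBPJ to -0.53. HES1 came to -0.10 without letter C, to -0.41 without letter A and to -0.06 under equal totals.

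**Figure D3:**
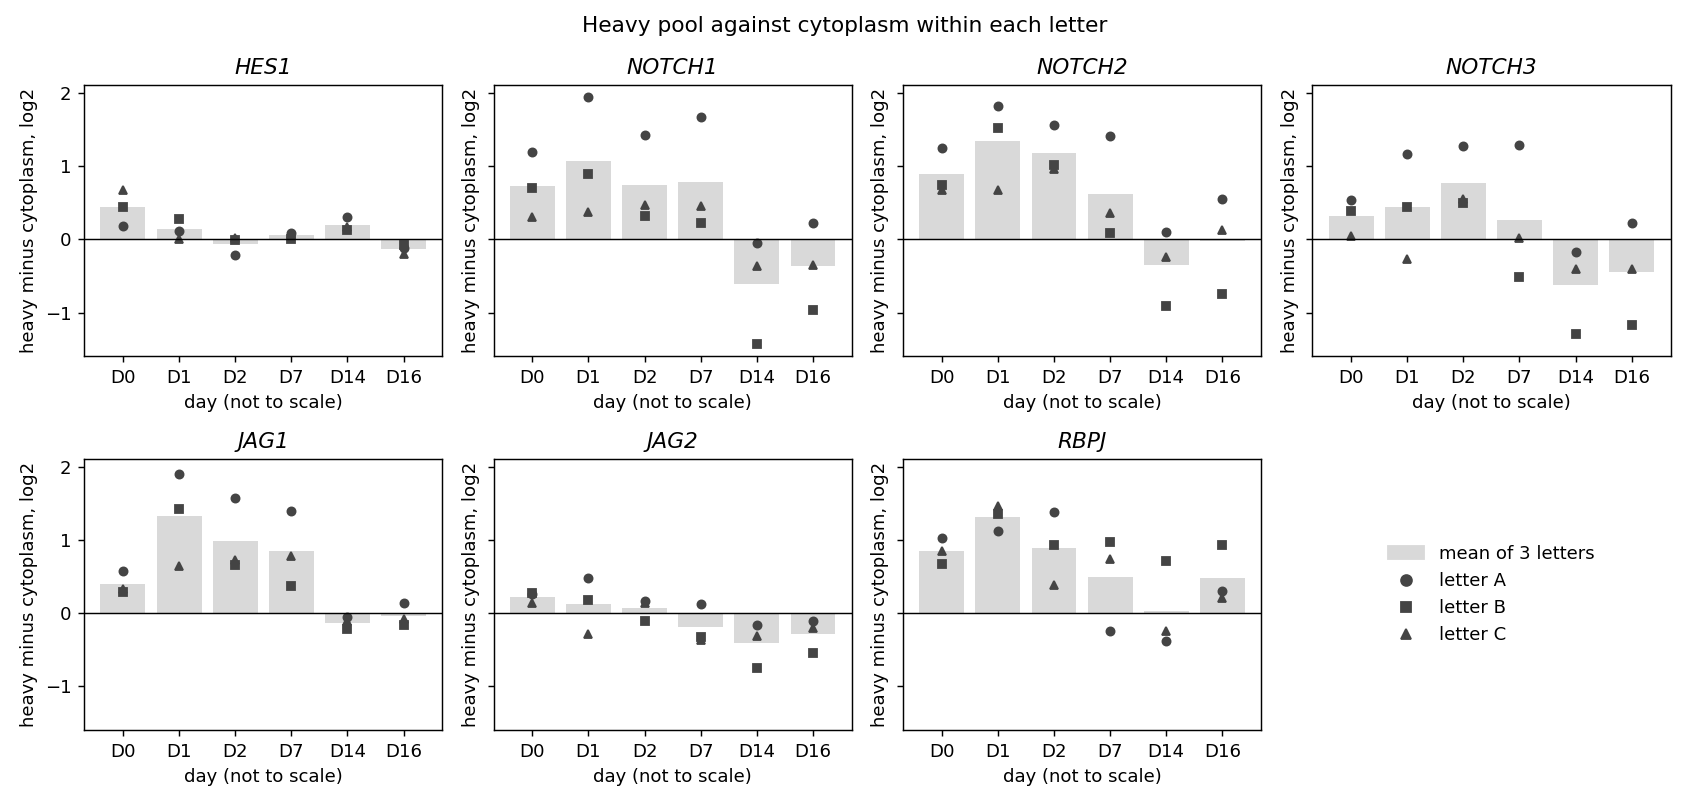
Heavy pool minus cytoplasm in log2(value + 1) (vertical axis) by day (horizontal axis, not to scale) within letters A, B and C; grey bars are the means of the 3 letters. NOTCH1 goes from 0.73 at D0 to -0.61 at D14, and HES1 stays between -0.13 and 0.44.

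Other genes of the pathway were taken from a list of 71, written by role, of which 59 are listed in the table. The unlisted ones include HES5, HES7, HEY2, DLL3, DLK1, PSEN2 and ATOH1. These 59 were tested with limma and adjusted by Benjamini-Hochberg over all genes of the fit. In the heavy pool 15 rose and 16 fell at D1, where 20.1% of all genes rose and 26.9% fell. At D2 20 rose and 16 fell (30.4% and 34.5% of all genes), and at D7 13 rose and 30 fell (27% and 36.5%). At D14 17 rose and 24 fell (34.4% and 37.6%), and at D16 20 rose and 20 fell (36.2% and 36.6%). The median of the 59 was lowest at D7, at -0.30, beside -0.11 for all genes. When libraries were scaled to equal totals the splits were 27 and 8, 34 and 7, 18 and 16, 29 and 14, and 35 and 9, so the balance of directions depended on the scaling. Over all called genes the share that rose moved likewise, from 42.72%, 46.84%, 42.55%, 47.81% and 49.7% to 67.89%, 71.67%, 64.55%, 65.05% and 70.74%.

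In the cytoplasm 8 of the 59 rose and 5 fell at D1 (10.9% and 7.09% of all genes), 10 rose and 4 fell at D2 (14.2% and 10.6%), and 8 rose and 15 fell at D7 (18.3% and 15.7%). At D14 6 rose and 1 fell (7.75% and 5.05%), and at D16 7 rose and 1 fell (9.47% and 7.26%). With the letter as a block the last 2 days gave 13 and 14 calls in place of 7 and 8. Of all genes, 19% and 23.6% were then called, against 12.8% and 16.7%. With equal library totals these days gave 3 and 0, and 6 and 0 (10.2% and 13.4% of all genes called). Leaving out a letter lowered the cytoplasmic counts. Without letter C there were 6 at D7 (8.32% of all genes), and without letter B 2 at D1 (5.51%).

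HES2, a relative of HES1 that also represses transcription, had the largest difference from D0 of the 59 genes in either fraction. It rose from 431.1, 431.8 and 407.8 at D0 to 6673, 8917 and 7570 at D2 in the cytoplasm, a difference of 4.18 ± 0.24 in log2 (limma adjusted p = 1.165e-09). In the heavy pool it rose from 705.8, 553.1 and 665.7 to 10500, 11390 and 12630, 4.17 ± 0.10 (limma adjusted p = 1.419e-18), or 17.95-fold. HES2 was thus highest on the day when HES1 was lowest. At D7 it stood at 3510, 2944 and 3517 in the heavy pool, still 5.18-fold above D0 (limma adjusted p = 2.837e-14).

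HES4, a further repressor of the family, rose in the cytoplasm at D7 from 1357, 861.5 and 857.8 to 6688, 2078 and 2765, 1.75 ± 0.37 (limma adjusted p = 0.002203), and by 1.26 without the libraries D7 A, D14 B and D16 B (limma adjusted p = 0.008376). HES4 also rose in the heavy pool at D14 and D16, by 1.42 ± 0.16 (limma adjusted p = 4.724e-08) and 1.17 ± 0.16 (limma adjusted p = 7.757e-07), from a mean of 495.0 to 1342 and 1130. At D7 it was 639.9 there, a difference that did not pass the test. HES6, which counteracts HES1 in neural progenitors, rose in the cytoplasm at D2 by 1.07 ± 0.20 (limma adjusted p = 0.0007141) and in the heavy pool at D14 by 0.64 ± 0.14 (limma adjusted p = 0.0002496). In between, at D7, HES6 rose in the cytoplasm by 0.79 ± 0.20 (limma adjusted p = 0.006966), a call lost without letter C (limma adjusted p = 0.1044). On the same day HES6 fell in the heavy pool by 0.58 ± 0.14 (limma adjusted p = 0.0007315), a call lost under equal library totals (limma adjusted p = 0.08404). HEYL fell in the heavy pool at D14 by 0.80 ± 0.10 (limma adjusted p = 2.429e-07) and at D16. HEY1 was scarce, with means of 11.2 to 29.4 in the heavy pool.

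Among genes that Notch is known to switch on, NRARP is a feedback inhibitor that binds the Notch complex. Its heavy-pool values were 849.6, 717.9 and 873.0 at D0, 498.3, 479.5 and 432.8 at D1 and 1211, 1256 and 1172 at D14. NRARP fell at D1 by 0.79 ± 0.11 (limma adjusted p = 2.832e-06) and rose at D14 by 0.58 ± 0.11 (limma adjusted p = 4.333e-05) and at D16 by 0.73 ± 0.11 (limma adjusted p = 2.268e-06). Its rise at D7, 0.35 ± 0.11 (limma adjusted p = 0.006271), was lost without letter A (limma adjusted p = 0.09033) or letter B (limma adjusted p = 0.1599). In the cytoplasm its differences at D14 and D16, 0.24 and 0.21, did not pass the test.

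CCND1, the cyclin that drives entry into S phase, rose in the heavy pool from 32160, 35130 and 37230 at D0 to 79400, 68680 and 70770 at D2 and 84150, 68140 and 94500 at D7. These differences were 1.07 ± 0.11 (limma adjusted p = 2.113e-08) and 1.23 ± 0.11 (limma adjusted p = 3.753e-09). At D14 CCND1 overlapped D0 again (37060, 31150 and 39470). MYC, the proliferation factor, fell in the heavy pool at D1 by 0.64 ± 0.11 (limma adjusted p = 6.915e-05), and at D7 its difference of 0.16 ± 0.11 did not pass the test. MYC also fell in the heavy pool at D2 by 0.59 ± 0.11 (limma adjusted p = 6.662e-05), at D14 by 0.42 ± 0.11 (limma adjusted p = 0.001835) and at D16 by 0.63 ± 0.11 (limma adjusted p = 2.442e-05). The calls at D2, D14 and D16 were lost under equal library totals. In the cytoplasm MYC was at 0.51 at D14 and 0.58 at D16, and neither difference passed the test. SOX9, a crypt transcription factor, rose in the heavy pool at D7 by 0.52 ± 0.13 (limma adjusted p = 0.001731).

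**Figure D4:**
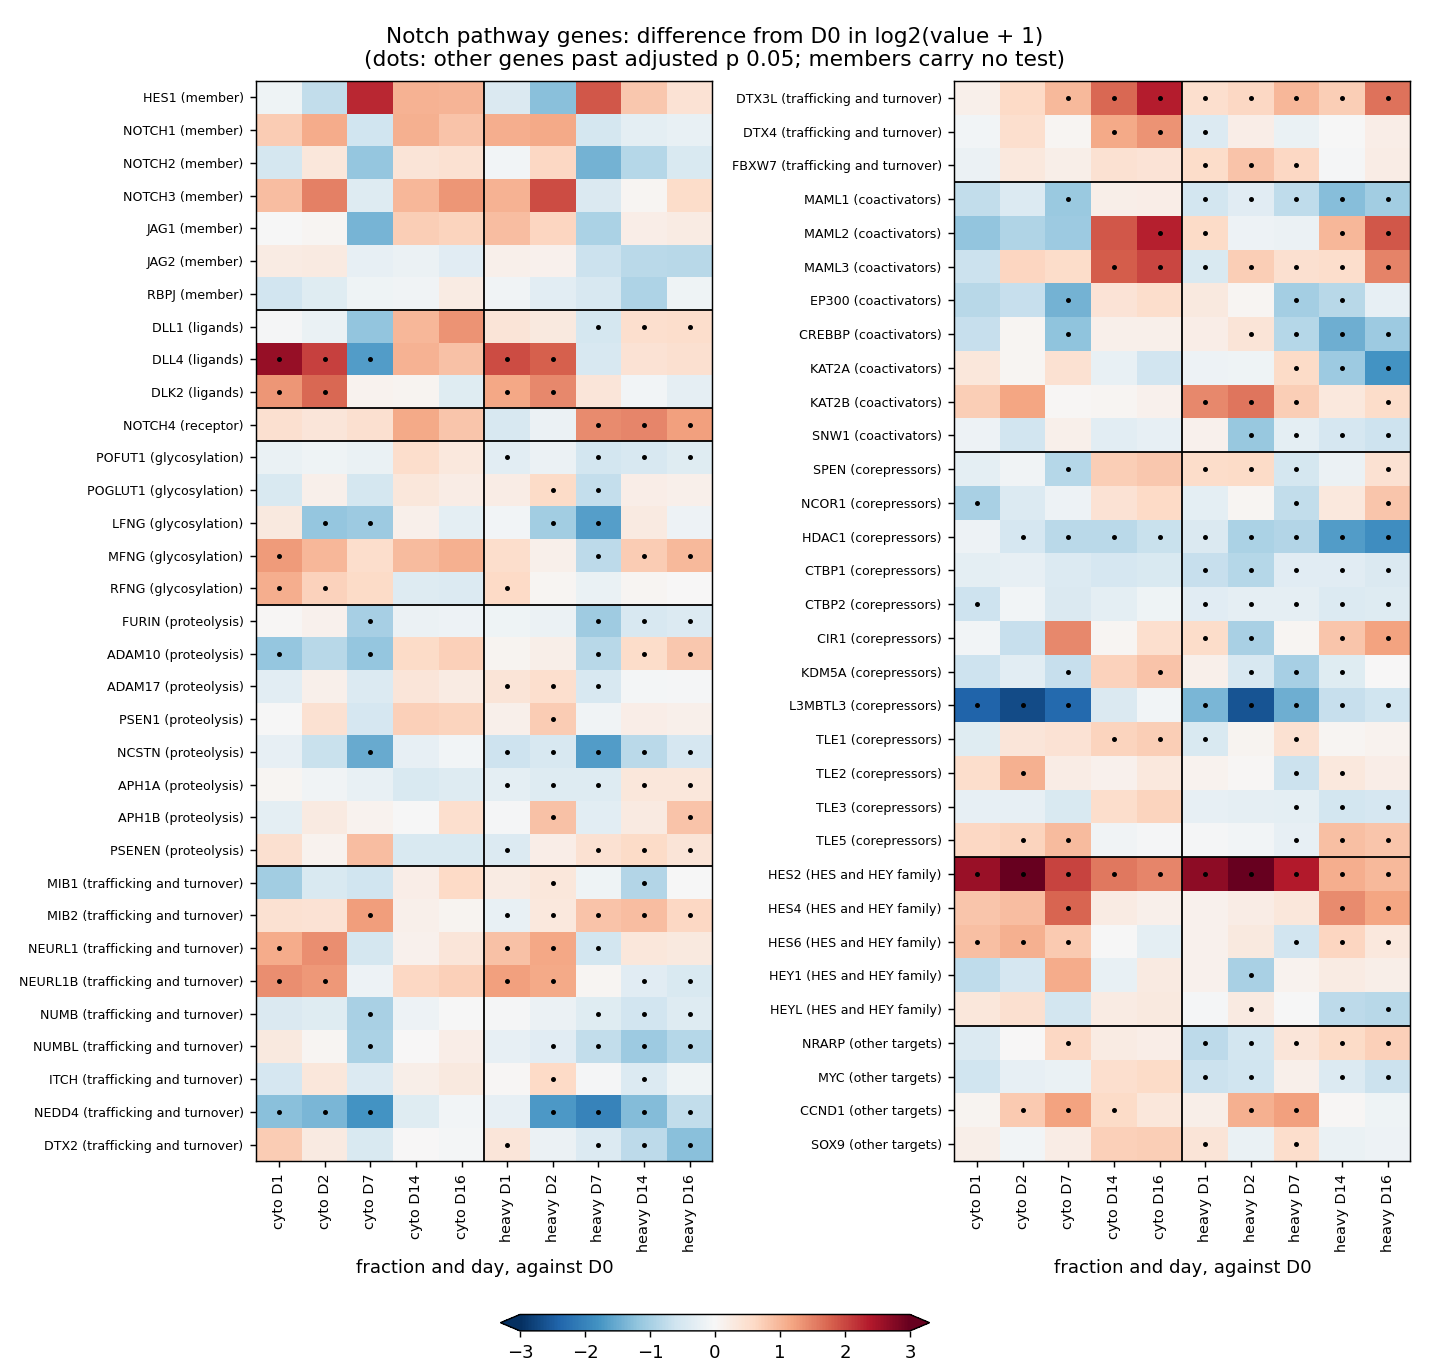
Difference from D0 in log2(value + 1) (colour scale, clipped at 3) of the 7 members and 58 of the other listed genes (rows, with their role) in cytoplasm and heavy pool by day (columns); dots mark other genes past an adjusted p of 0.05. HES2 is the darkest row on D2, at 4.18 and 4.17.

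Of the ligands, DLL4, which signals to neighbouring cells as JAG1 does, rose in the heavy pool from 43.5, 38.2 and 40.1 at D0 to 154.9, 187.7 and 144.8 at D1 and 105.0, 173.9 and 159.3 at D2. The differences were 1.97 ± 0.32 (limma adjusted p = 2.615e-05) and 1.79 ± 0.32 (limma adjusted p = 3.3e-05). DLL4 thus stood above D0 on the days when NOTCH1, NOTCH3 and JAG1 did in the heavy pool. Its cytoplasmic rise at D1, 2.61 ± 0.56 (limma adjusted p = 0.003955), was lost without letter B (limma adjusted p = 0.05844) or C (limma adjusted p = 0.1438). DLK2, a ligand-like protein of the family, rose in the cytoplasm at D2 by 1.72 ± 0.32 (limma adjusted p = 0.000639). DLL1 fell in the heavy pool at D7 by 0.54 ± 0.20 (limma adjusted p = 0.02542) and rose at D14 by 0.51 ± 0.20 (limma adjusted p = 0.02982) and at D16 by 0.52 ± 0.20 (limma adjusted p = 0.02603). Each of these calls was lost without at least 1 letter: B or C at D7, A or C at D14 and A or B at D16. In the cytoplasm DLL1 did not pass the test on any day. NOTCH4, the remaining receptor, was scarce in the heavy pool with a mean of 25.4 at D0 and 70.3 at D7, a rise of 1.42 ± 0.24 (limma adjusted p = 1.843e-05).

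At D7 in the heavy pool, 36.5% of all genes fell and 27% rose, so that 63.5% were called and 42.55% of the calls rose. Under equal library totals 62.6% of all genes were called, and 64.55% of those calls rose. Counts by role on that day are read beside these shares. Of the 8 listed proteolysis genes 5 fell and 1 rose (3 and 1 under equal totals), and of the 5 glycosylation genes 4 fell and 0 rose (3 and 0). NCSTN, a subunit of the gamma-secretase that frees the intracellular part, fell in the heavy pool from 2136, 1857 and 1858 to 588.6, 539.0 and 721.2, by 1.67 ± 0.15 (limma adjusted p = 4.31e-09). In the cytoplasm NCSTN fell by 1.52 ± 0.24 (limma adjusted p = 0.0002462). ADAM10 and ADAM17, the proteases that make the first cut, fell by 0.84 ± 0.10 (limma adjusted p = 1.493e-07) and 0.49 ± 0.09 (limma adjusted p = 0.0001169), the latter lost under equal library totals (limma adjusted p = 0.1203).

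LFNG, a Fringe enzyme that adds sugar to Notch and changes which ligands it answers to, fell in the heavy pool at D7 from 296.7, 281.5 and 307.0 to 103.9, 85.2 and 90.9, by 1.65 ± 0.15 (limma adjusted p = 2.851e-09). NEDD4, a ubiquitin ligase, fell there from 443.5, 495.3 and 549.4 to 112.7, 132.0 and 122.9, by 2.01 ± 0.14 (limma adjusted p = 8.027e-11). Of the 12 listed genes of trafficking and turnover 3 rose and 5 fell on that day, close to the shares of all genes, and 4 rose and 2 fell under equal totals. NEURL1B, a ligase that acts on the ligands, rose at D1 by 1.22 ± 0.12 (limma adjusted p = 1.912e-08). DTX3L rose late, by 1.62 ± 0.12 in the heavy pool at D16 (limma adjusted p = 4.856e-11) and by 2.37 ± 0.23 in the cytoplasm (limma adjusted p = 2.011e-06).

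Cofactors that RBPJ and Notch use on DNA are a further group. L3MBTL3, a corepressor that RBPJ recruits, fell in the heavy pool from 1359, 1315 and 1465 at D0 to 248.4, 279.9 and 170.6 at D2, by 2.59 ± 0.14 (limma adjusted p = 2.87e-13). HDAC1, a histone deacetylase, fell there from 25420, 27880 and 28290 at D0 to 7593, 7733 and 7010 at D16, by 1.87 ± 0.10 (limma adjusted p = 2.103e-13). Of the 13 listed corepressors 10 fell and 1 rose in the heavy pool at D7, where 36.5% of all genes fell and 27% rose. Under equal totals 5 fell and 1 rose, where 62.6% of all genes were called. Of those calls 64.55% rose, against 42.55% without that scaling. MAML3 and MAML2, Mastermind coactivators that bind Notch on DNA, rose there at D16 by 1.49 ± 0.18 (limma adjusted p = 1.418e-07) and 1.87 ± 0.20 (limma adjusted p = 2.489e-08). Their relative MAML1 fell in the heavy pool at D14 by 1.27 ± 0.11 (limma adjusted p = 4.561e-10). In the cytoplasm MAML1 was at 0.17 on that day, which did not pass the test. KAT2A, an acetyltransferase, fell in the heavy pool at D16 by 1.78 ± 0.09 (limma adjusted p = 2.171e-13).

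In the comparison of heavy pool with cytoplasm at D0, 27 of the 59 other genes were higher and 8 lower in the heavy pool (26.7% and 19.1% of all genes), with a median of 0.45 beside 0.14 for all genes. HES4, HES6 and NRARP were among those lower in the heavy pool, at -1.02 ± 0.30 (limma adjusted p = 0.00743), -0.68 ± 0.17 (limma adjusted p = 0.002193) and -0.53 ± 0.14 (limma adjusted p = 0.003255). HEYL, MYC, CCND1 and SOX9 were called higher there, at 0.95, 0.92, 0.65 and 0.62. Of the 5 other HES and HEY genes listed, 2 were called higher and 2 lower. Of the 4 other Notch targets listed, 3 were called higher and 1 lower. HES1, a member without a test, was at 0.44.

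The change of this difference against D0 was called for 0 of the 59 at D1 (limma; 14 at an unadjusted p under 0.05, and 2 with the letter as a block), where 4.16% of all genes were called. It was called for 1 at D2 (2.06% of all genes, and 2 of the 59 with the block) and 4 at D7 (3.95%). With the block 6.97% of all genes were called at D1 and 2.7% at D2. At D14 the called change was positive for 5 and negative for 19 (11.5% and 16.7% of all genes), and at D16 positive for 2 and negative for 17 (11.6% and 17.9%). With equal library totals D14 gave 6 and 1 and D16 gave 7 and 2, so that both the number and the direction at these days depended on the scaling. Of all genes, 19.8% were then called at D14 and 23.8% at D16, and 78.64% and 74.66% of those calls were positive, against 40.78% and 39.19% without that scaling.

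Genes whose pattern was most like that of HES1 were ranked by the lower of 2 Pearson correlations with it, over the 18 cytoplasmic and the 18 heavy libraries, among 12290 genes that averaged 100 or more in each fraction. HOXB8 came first, with r of 0.90 in the cytoplasm and 0.97 in the heavy pool, and heavy means of 2592 at D0, 1781 at D2 and 4659 at D7. WARS2-AS1 (0.85 and 0.84), GNPAT (0.84 and 0.93), ABHD11 (0.83 and 0.90) and RHPN1 (0.83 and 0.83) followed. WARS2-AS1 is an antisense RNA, and the strand setting of the counting is not given in the sources used here, so its reads may include those of its partner. These libraries share days and sequencing depth, so the correlations describe this table only.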

How the data were processed

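The members and gene lists were chosen with earlier results of these data known. The submitters' processing notes name cutadapt 3.2, STAR 2.7.9a, featureCounts, Subread 2.0.1, DESeq2 1.30.1 and GRCh38, without their settings. The annotation release is not given in the sources used here. The deposited values are a signal, named normalised counts by the authors; every library's values are whole multiples of 1 step within 0.01, as reads over a size factor would be. Of 54 value columns 18 belong to no sample and were not used. Depth is an estimate from that step, which a search starting at the lowest value did not find in every library.

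Values were taken as log2(value + 1). A gene entered a fit when 3 or more libraries reached 10. limma 3.58.1 (R 4.3.3, eBayes with trend, two-sided) was fitted over the 18 libraries of a fraction, or all 36 for heavy pool against cytoplasm, adjusted by Benjamini-Hochberg and called at 0.05. The fits were also run on simulated data with independent noise for each gene. Such data hold no effect shared by the genes of a library, so that run does not bear on such effects. Named genes were the members, 14 fixed pathway genes, in each comparison up to 5 called ones with the largest difference and a mean of at least 100, and the 5 most like HES1. Letters are batches per the labels, and deviations of the same letter had a mean correlation of 0.191 across cytoplasmic days, 0.068 across heavy days and -0.001 across fractions; the replicate block is an alternative. One listed gene is counted in the list totals and not reported here. Symbols were matched for 15856 identifiers.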

Additional observations from a re-analysis of the deposited data

Results flagged for a closer look

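Named here are genes whose change from D0 differed between the heavy pool and the cytoplasm. The limma test was of the difference between both changes (log2, SE, adjusted over all genes). They come from the 14 fixed pathway genes and, in each comparison, up to 5 called ones with the largest difference and a mean of at least 100. Of the 59 other genes 24 were called at D14 and 19 at D16, so not all called genes of these days are named. Called at D2 was TLE2, a corepressor, at -1.02 ± 0.25 (limma adjusted p = 0.02538). Called at D7 were HES6 at -1.37 ± 0.25 (limma adjusted p = 0.001337), TLE5 at -1.20 ± 0.24 (limma adjusted p = 0.003762), TLE2 at -0.87 ± 0.25 (limma adjusted p = 0.04394) and RFNG at -0.78 ± 0.23 (limma adjusted p = 0.04998).

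At D14 HES4 (1.17 ± 0.43, limma adjusted p = 0.04043) and HES6 (0.65 ± 0.25, limma adjusted p = 0.04543) gained in the heavy pool relative to the cytoplasm. Of the 8 listed coactivators 5 had a called negative change, where 16.7% of all genes did, among them CREBBP at -1.61 ± 0.44 (limma adjusted p = 0.00752), MAML1 at -1.44 ± 0.38 (limma adjusted p = 0.006285), MAML3 at -1.28 ± 0.33 (limma adjusted p = 0.005563) and EP300 at -1.24 ± 0.42 (limma adjusted p = 0.0283). These 4 calls were all lost under equal library totals. HEYL stood at -1.04 ± 0.35 (limma adjusted p = 0.02751), SOX9 at -0.91 ± 0.32 (limma adjusted p = 0.03085) and CCND1 at -0.53 ± 0.20 (limma adjusted p = 0.03973).

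At D16 the changes were -1.25 ± 0.44 for CREBBP (limma adjusted p = 0.02937), -1.25 ± 0.38 for MAML1 (limma adjusted p = 0.01311), -1.22 ± 0.36 for MYC (limma adjusted p = 0.01126), -1.21 ± 0.25 for KAT2A (limma adjusted p = 0.000702), -1.14 ± 0.35 for HEYL (limma adjusted p = 0.01518) and -0.91 ± 0.32 for SOX9 (limma adjusted p = 0.02921).

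For NOTCH1 and NOTCH2 all 3 letters moved up from D0 to D14 in the cytoplasm and down in the heavy pool, and the heavy change minus the cytoplasmic change was -1.35 and -1.23. As members they carry no test, and this difference was not tested. The directions hold for libraries matched by letter, whose deviations had a mean correlation of 0.191 across cytoplasmic days and 0.068 across heavy days. Unmatched, NOTCH2 in the cytoplasm and NOTCH1 in the heavy pool overlapped D0 at D14. How many of all genes moved in this way was not counted. In the heavy pool the D14 difference of NOTCH1 alone turned positive under equal library totals (0.03).

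Of the 20 tested changes above, 19 lost their call without at least 1 letter and 15 under equal library totals. The change of KAT2A at D16 kept its call in every alternative run. HES6 and TLE5 at D7 lost it without letter C alone, and MAML1 and MAML3 at D14 without letter B or under equal totals. The heavy pool of D14 and D16 was close to the cytoplasm over all genes, and the part of this in these values was not tested.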

How the results depend on the processing

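Alternatives were a pseudocount of 10, no filter, equal library totals, TMM scaling, the letter as a replicate block, eBayes without trend, leaving out each letter and, chosen after seeing the data, leaving out the cytoplasmic libraries D7 A, D14 B and D16 B. edgeR on recovered reads was not run, because taking the lowest value of a library as the start of the search for 1 read did not give whole reads in every library. Equal totals reversed RBPJ in the heavy pool at D2 (0.057) and MAML1 there (0.0395, limma adjusted p = 0.7575). The median of all genes moved under that scaling by -0.32 at D7 in the cytoplasm and 0.42 at D16 in the heavy pool, and by at most 0.04 under TMM. Causes were not tested.

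Calls among the 59 other genes moved by over 1.5 times as follows. The share of all genes called is given in brackets. Equal totals gave 3 in the cytoplasm at D14 (10.2%). For the change of heavy pool against cytoplasm they gave 0 at D2 (0.831%), 7 at D14 (19.8%) and 9 at D16 (23.8%). For that change at D7, TMM and eBayes without trend gave 2 each (3.46% and 3.81%). The block gave 13 at D14 (19%) and 14 at D16 (23.6%) in the cytoplasm. It gave 2 at D1 (6.97%) and 2 at D2 (2.7%) for the change, and moved no other count that far. Without the 3 libraries the cytoplasm gave 20 at D1 (33.7%), 22 at D2 (37.1%), 12 at D14 (19.4%) and 13 at D16 (21.9%). The change then gave 16 at D1 (25.6%) and 7 at D2 (9.67%).

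Leaving out a letter gave 2 to 8 calls at D1 in the cytoplasm (3.34 to 11.5% of all genes). At D2 it gave 7 to 11 there (11.3 to 16.9%) and at D7 6 to 20 (8.32 to 29.1%). At D14 it gave 3 to 5 (1.59 to 6.93%) and at D16 3 to 6 (2.76 to 9.54%). For the heavy pool against the cytoplasm at D0 it gave 23 to 29 (31 to 36.5%). For the change it gave 0 to 0 at D2 (0.0252 to 0.214%) and 0 to 2 at D7 (0.157 to 1.45%). The change at D14 had 5 to 14 calls (8.16 to 21.1%) and at D16 2 to 13 (11.1 to 25.5%). In the heavy pool it gave 22 to 26 at D1 (33.3 to 41.9%) and 30 to 42 from D2 to D16 (52.4 to 68.2%). The limits are 3 libraries a group, shared D0 libraries and the wider scatter of the cytoplasm.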
